A study of Mus musculus with 26 samples.

Results

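Telomere protection and maintenance genes were followed through 6 RNA-Seq libraries and 16 CUT&RUN peak lists of mouse embryonic fibroblasts (MEFs). The group was a list of 10 genes, Terf1, Terf2, Terf2ip, Acd, Tinf2, Pot1a, Pot1b, Rtel1, Ctc1 and Tert, chosen by name and matched through their Ensembl identifiers to the GENCODE M21 annotation. All 10 of them were found among the 53801 gene identifiers of each RNA-Seq file. The study examined how RNA contacts of ATRX, a chromatin remodeller of the SNF2 family, bear on where ATRX and the Polycomb enzyme EZH2 sit and on gene expression. WT cells carried no named change. ATRXΔRBR cells carried a CRISPR deletion of the RNA binding region in endogenous ATRX and were grown from picked colonies after a short puromycin selection, so that they stand for a clonal line. ATRX KD cells expressed an shRNA against ATRX and were also selected with puromycin, and all MEFs were female. Each group had 2 RNA-Seq libraries of polyA RNA. CUT&RUN, which releases antibody-bound chromatin fragments for sequencing, had 2 lists per group for ATRX (WT and ATRXΔRBR) and for EZH2 and the histone mark H3K27me3 (WT, ATRXΔRBR and ATRX KD). The study calls the RNA replicates biological, while no source used here says whether they were separate cultures, and p-values measure only the spread between these libraries.

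Chromosome ends are covered by shelterin, a complex that hides them from the DNA damage response. TERF1 and TERF2 bind double-stranded telomere repeats, TERF2IP (RAP1) binds TERF2, and TINF2 links these proteins to ACD (TPP1), which holds POT1 on the single-stranded overhang. Mice have a pair of POT1 genes, Pot1a and Pot1b. RTEL1 is a helicase that unwinds telomere loops, CTC1 is the large subunit of the CST complex that helps fill in the lagging strand, and TERT is the reverse transcriptase of telomerase. ATRX itself is known for placing histone H3.3 at telomeres together with DAXX.

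Promoter letters of 3 members whose RNA or peaks are described further on are shown first. They run from 250 bases before to 50 bases after the RefSeq start, on the strand of the gene, in build GRCm38.p6. Tert (ENSMUSG00000021611, chr13:73626661-73626960, plus strand) had the largest fitted RNA difference of the 10 members in each comparison. Pot1a (ENSMUSG00000029676, chr6:25809169-25809468, minus strand) held an ATRX peak in WT. Pot1b (ENSMUSG00000024174, chr17:55712587-55712886, minus strand) lay at the edge of an H3K27me3 domain. Capitals mark GC boxes (GGGCGG or its reverse complement CCGCCC) and, in Pot1b, a telomere repeat unit (TTAGGG).
Tert: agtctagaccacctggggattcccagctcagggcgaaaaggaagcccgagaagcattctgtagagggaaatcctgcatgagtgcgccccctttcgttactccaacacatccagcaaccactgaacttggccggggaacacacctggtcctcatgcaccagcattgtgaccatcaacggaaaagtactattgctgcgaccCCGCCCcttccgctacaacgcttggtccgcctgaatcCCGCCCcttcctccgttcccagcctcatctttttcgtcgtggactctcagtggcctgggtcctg
Pot1a: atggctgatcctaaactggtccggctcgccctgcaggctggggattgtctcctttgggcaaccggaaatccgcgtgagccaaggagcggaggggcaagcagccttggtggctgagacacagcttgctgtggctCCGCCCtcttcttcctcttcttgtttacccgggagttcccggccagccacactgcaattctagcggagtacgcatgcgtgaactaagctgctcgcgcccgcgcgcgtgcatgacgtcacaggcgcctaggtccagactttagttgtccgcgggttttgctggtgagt
Pot1b: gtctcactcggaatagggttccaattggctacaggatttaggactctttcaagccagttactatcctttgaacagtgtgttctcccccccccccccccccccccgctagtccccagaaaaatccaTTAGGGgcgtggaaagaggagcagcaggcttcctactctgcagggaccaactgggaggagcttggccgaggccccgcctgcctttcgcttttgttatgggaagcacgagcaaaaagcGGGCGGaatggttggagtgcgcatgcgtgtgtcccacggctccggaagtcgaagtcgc
A further stretch, taken from the genome, is the central 300 bases of the ATRX peak at Terf1 in ATRXΔRBR (chr1:15805542-15805841, plus strand). It holds none of the motifs searched and has no capitals.
Terf1: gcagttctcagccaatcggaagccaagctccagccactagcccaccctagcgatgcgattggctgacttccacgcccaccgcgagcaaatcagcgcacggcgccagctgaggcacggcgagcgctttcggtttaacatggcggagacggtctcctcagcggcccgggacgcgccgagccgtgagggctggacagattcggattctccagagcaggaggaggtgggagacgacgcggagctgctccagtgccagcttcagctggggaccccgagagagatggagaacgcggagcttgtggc

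The RefSeq promoter table held a window for 9 of the 10 members. The motifs were searched on both strands, and no match of a motif overlapped a match of another motif, while 2 GC boxes in Ctc1 overlapped each other. A GC box occurred in 7 of these 9 windows and in 35.7% of all 32851 promoter windows of the same length. The telomere repeat unit occurred in 1 of the 9, that of Pot1b, at position -125 from the RefSeq start, and in 10.6% of all windows. An E-box (CACGTG) occurred in the window of Ctc1 alone among the 9 and in 7.15% of all windows. GC content of the 9 windows ranged from 48.0% in Acd to 60.7% in Pot1a, with a median of 56.3% beside 52.7% for all promoters.

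Totals of estimated counts lay between 9051693 and 21723647 per library, and both extremes were ATRX KD libraries. Counts of the same group differed by more than sampling noise, with a chi-square over its degrees of freedom of 26.7 (WT), 21.6 (ATRXΔRBR) and 3.12 (ATRX KD). The libraries labelled ATRX KD did not have detectably less Atrx RNA, with 411 and 551 CPM (counts scaled to library size) beside 633 and 434 CPM in WT (log2 fold change -0.15 ± 0.21 SE, adjusted p = 0.605 in edgeR's quasi-likelihood test, adjusted by Benjamini-Hochberg over all genes). Without WT replicate 2 the log2 value was -0.40, and without WT replicate 1 it was 0.14. A fit that leaves out a library has a group of 1 library, so its p-value rests on the spread of the other group alone. Per transcript length Atrx stood higher in ATRX KD, with 331 and 512 TPM beside 233 and 141 TPM in WT. The mean transcript length assigned to Atrx was 2839 and 2405 bases in ATRX KD and 4974 and 6292 bases in WT. A shorter assigned length raises TPM at the same count. The paper describes ATRX as depleted in its ATRX KD MEFs and shows a western blot of the protein. RNA levels do not measure the protein. Atrx in ATRXΔRBR stood at 371 and 312 CPM (log2 fold change -0.63 ± 0.22 SE, adjusted p = 0.14 in the same test). It was called lower without a filter on low counts (adjusted p = 0.00806, edgeR). The log2 value was -0.88 without WT replicate 2 and -0.34 without WT replicate 1. Of 8 fibroblast markers, 7 exceeded 1 TPM in each WT and ATRXΔRBR library and 6 in each ATRX KD library, with a summed level of 7200 to 9520 TPM for WT, of 11500 TPM for each ATRXΔRBR library and of 11000 to 11600 TPM for ATRX KD. Thy1 was listed at 0 in all 6 libraries. The collagen gene Col3a1 had 71.7 and 61.2 CPM in WT, 35.9 and 34.3 in ATRXΔRBR and 0.436 and 0.556 (4 and 12 reads) in ATRX KD. It was called lower than WT in ATRXΔRBR (adjusted p = 0.0225, edgeR) and in ATRX KD (adjusted p = 2.39e-05, edgeR). In ATRX KD alone, Fn1 (log2 0.99, adjusted p = 0.00356, edgeR) and Pdgfrb (log2 0.51, adjusted p = 0.0116, edgeR) were called higher than WT. Col1a1, Col1a2, Vim and Pdgfra were called in neither comparison with WT. Among 6 pluripotency markers, Sox2 fell from 637 and 442 reads (WT) to 170 and 254 (ATRXΔRBR) and 9 and 11 (ATRX KD), while Pou5f1 was listed at 0 throughout. Of 12 proliferation genes, 8 were called in ATRX KD against WT, 3 higher and 5 lower. This stands beside 33.0% of all genes, 15.2% higher and 17.8% lower. In ATRXΔRBR against WT 0 of the 12 were called, beside 6.85% of all genes. The raw read files of the ATRX KD libraries are named in another form than the others. Whether they were sequenced in another batch is not given in the sources used here, and such a batch and the knockdown cannot be told apart. In such bulk samples, fewer cells of a type and less RNA per cell cannot be told apart either.

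Levels of the members were ordered by TPM, which is per transcript length and can be set side by side between genes. Rtel1 had the highest level in WT (102.0 ± 1.41 TPM, SD, n = 2), followed by Acd (86.0 ± 2.33). Terf2 (45.2 ± 1.90), Terf1 (41.4 ± 4.29), Tinf2 (33.1 ± 8.97), Pot1a (25.7 ± 10.8), Ctc1 (23.3 ± 7.57) and Terf2ip (19.0 ± 0.262) formed a middle stretch in which the replicates of each neighbouring pair overlapped. Pot1b stood apart at 4.67 ± 1.21 TPM, and Tert was lowest at 0.545 ± 0.191 TPM. Rtel1 and Acd held the top places, and Terf2ip, Pot1b and Tert the last 3, in all 3 groups. Tinf2 took the third place in ATRX KD, at 68.3 ± 2.24 TPM, and the replicates of no neighbour overlapped it.

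The members were first compared between ATRXΔRBR and WT. The ATRXΔRBR libraries stand for a clonal line, so differences of the clone and effects of the deletion cannot be told apart. None of the 10 members passed an adjusted p of 0.05 in edgeR's quasi-likelihood test, where 6.85% of the 16334 genes tested were called, 2.79% higher and 4.07% lower. At an unadjusted p under 0.05 there were 2 members, Pot1a and Tert, beside 20.6% of all genes tested. DESeq2 also called 0 members, with 1 under an unadjusted p of 0.05 beside 15.7% of all genes. The median log2 fold change of the members was 0.09 beside -0.0157 over all genes tested. The CPM values of the groups did not overlap for 6 of the 10 members, and for 49.5% of all genes tested.

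Pot1a, which guards the overhang, had 26.8 and 40.0 CPM in WT and 60.3 and 51.3 CPM in ATRXΔRBR. Both ATRXΔRBR libraries lay above both WT libraries. The fitted fold change was 1.68 (log2 0.75 ± 0.23 SE, 95% interval 0.21 to 1.28, adjusted p = 0.111, edgeR). Pot1a was called when no filter on low counts was used (adjusted p = 0.0168, edgeR) and with all 6 libraries in 1 fit (adjusted p = 0.048, edgeR). Its log2 value was 1.07 without WT replicate 2 and 0.49 without WT replicate 1.

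Pot1b had 7.27 and 9.44 CPM in WT and 8.51 and 6.62 CPM in ATRXΔRBR. These ranges overlapped, and the interval of the difference ran from -0.76 to 0.48 on the log2 scale. The Pot1 paralogs share sequence, and how the authors' counting divided reads that fit both was not tested.

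Tert gave 10 and 10 reads in WT and 2 and 2 in ATRXΔRBR, or 0.765 and 0.835 CPM against 0.21 and 0.145 CPM. The summed counts, 20 and 4, gave a WT level 4.65 times that of ATRXΔRBR with an exact 95% counting interval of 1.56 to 18.7, which covers counting error only. In the fit across all genes this was a log2 fold change of -2.14 ± 0.69 (SE, 95% interval -3.73 to -0.54) with an adjusted p of 0.123 (edgeR). The whole interval lay on the side of less Tert, but the difference was not called at this depth after adjustment over all genes. In TPM, a scale per length, the values overlapped between the groups, with 0.68 and 0.41 in WT beside 0.42 and 0.54 in ATRXΔRBR. The mean transcript length assigned to Tert by RSEM was 2081 and 4140 bases in WT, but 1101 and 550 bases in ATRXΔRBR, where it rested on 2 reads per library.

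The other shelterin genes differed less. Terf1 had 37.2 and 36.7 CPM in WT and 47.2 and 45.8 CPM in ATRXΔRBR, without overlap (log2 fold change 0.34 ± 0.17 SE, adjusted p = 0.315, edgeR). Acd had 59.7 and 51.6 CPM in WT and 60.6 and 77.6 CPM in ATRXΔRBR, with an interval of the difference from -0.13 to 0.77. Tinf2 went from 39.5 and 46.8 CPM to 38.9 and 35.6 CPM, with an interval from -0.63 to 0.22. Terf2 (interval -0.31 to 0.50) and Terf2ip (-0.31 to 0.49) overlapped between the groups.

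Rtel1 had 79.4 and 93.4 CPM in WT and 121 and 108 CPM in ATRXΔRBR (log2 fold change 0.41 ± 0.18 SE, adjusted p = 0.247, edgeR). Its ATRXΔRBR libraries lay above both WT libraries. Ctc1 had 34.1 and 25.9 CPM in WT, on either side of the 29.1 and 29.7 CPM of ATRXΔRBR.

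**Figure D1:**
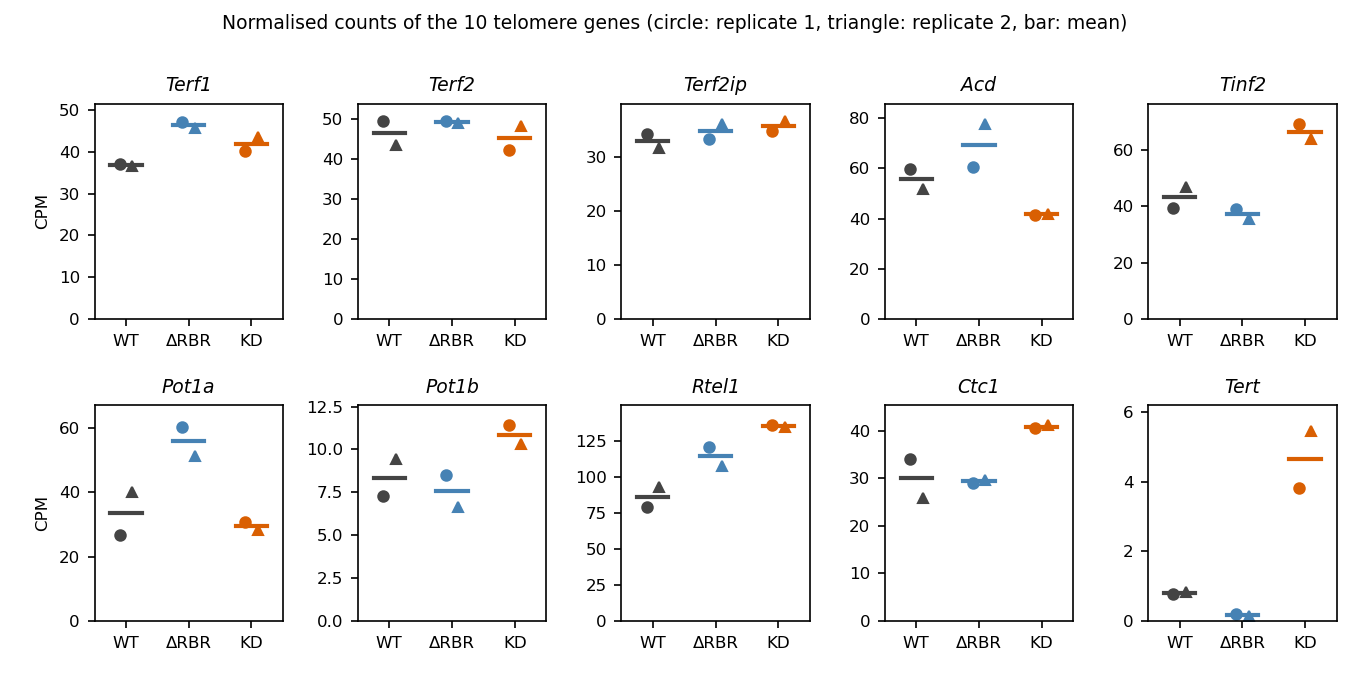
Normalised counts (CPM, y axis from 0) of each of the 10 telomere genes in WT, ATRXΔRBR and ATRX KD cells; circles are replicate 1, triangles replicate 2 and bars the mean of the 2 libraries. Tert lies below 1 CPM in all WT and ATRXΔRBR libraries and at 3.82 and 5.46 CPM in ATRX KD, and Pot1a is highest in ATRXΔRBR.

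The libraries labelled ATRX KD were compared with WT next. Tert, Rtel1 and Tinf2 rose and Acd fell, and the other 6 members were not called. These 4 of 10 called members stand beside 33.0% of 16785 genes called in the same test, 15.2% higher and 17.8% lower. The median log2 fold change of the members was 0.275, and that of all genes -0.0197. The groups did not overlap for 8 of the 10 members and for 69.8% of all genes tested. When each library was left out in turn, the log2 value ranged from 2.26 to 2.75 for Tert and from 0.51 to 0.76 for Rtel1. It ranged from 0.47 to 0.73 for Tinf2 and from -0.52 to -0.33 for Acd. For Rtel1, Tinf2 and Acd the adjusted p-values without an ATRX KD library follow below.

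Tert, the catalytic subunit of telomerase, gave 35 and 118 reads in ATRX KD against 10 and 10 in WT, or 3.82 and 5.46 CPM against 0.765 and 0.835. Every ATRX KD library lay above every WT library. The fitted fold change was 5.82 (log2 2.54 ± 0.37 SE, adjusted p = 0.003, edgeR), and Tert was called in each of the 11 settings with a test. The summed counts gave a ratio of 6.23 with an exact counting interval of 3.89 to 10.5. In TPM the level went from 0.545 ± 0.191 to 3.3 ± 0.24 (SD, n = 2 each), still the lowest of the 10 members.

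Tinf2, which bridges the shelterin subunits, had 39.5 and 46.8 CPM in WT and 69.0 and 63.6 CPM in ATRX KD. The rise was 1.53-fold (log2 0.62 ± 0.14 SE, adjusted p = 0.0159, edgeR). Without ATRX KD replicate 1 its adjusted p was 0.15, and without replicate 2 it was 0.0612. Tinf2 overlaps Gmpr2 on the opposite strand over 4512 bases. The paper names a directional library kit, but whether the counting used strand is not given in the sources used here. Whether reads of the overlap were counted for the right gene is thus not known.

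Rtel1, the loop-unwinding helicase, had 136 and 135 CPM in ATRX KD against 79.4 and 93.4 CPM in WT. Its rise of 1.56-fold (log2 0.64 ± 0.13 SE, adjusted p = 0.00961, edgeR) held in both ATRX KD libraries against both WT libraries. The adjusted p was 0.076 without ATRX KD replicate 1 and 0.0635 without replicate 2.

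Acd, the partner of POT1, was lower in ATRX KD, at 41.4 and 41.9 CPM against 59.7 and 51.6 CPM in WT. Its log2 fold change of -0.42 ± 0.14 (SE) had an adjusted p of 0.0499 in edgeR and of 0.0918 in DESeq2. Leaving out ATRX KD replicate 1 or 2 gave an adjusted p of 0.329 or 0.35, and in 6 of 11 settings it was called. Acd overlaps Carmil2 over 2328 bases and Terf2ip overlaps Gm6793 over 1604 bases, each on the opposite strand. This leaves the counts of Acd and Terf2ip uncertain in the same way.

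Terf1 (40.3 and 43.5 CPM), Terf2 (42.3 and 48.2 CPM) and Terf2ip (34.9 and 36.7 CPM), which sit on or next to the double-stranded repeats, were not called. Their log2 intervals against WT ran from -0.13 to 0.48, from -0.37 to 0.29 and from -0.20 to 0.43. Pot1a had 30.6 and 28.4 CPM, within the WT range, and its interval was -0.67 to 0.30. Without WT replicate 1 the log2 value of Pot1a was -0.47, and without WT replicate 2 it was 0.12. Pot1b had 11.4 and 10.3 CPM (interval -0.13 to 0.87) and Ctc1 40.5 and 41.2 CPM (log2 0.44 ± 0.17 SE, adjusted p = 0.0832, edgeR). For Pot1b and Ctc1 both ATRX KD libraries lay above both WT libraries. Pot1b had a log2 value of 0.56 without WT replicate 2 and of 0.17 without WT replicate 1. Ctc1 had a log2 value of 0.64 without WT replicate 1 and of 0.25 without WT replicate 2.

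**Figure D2:**
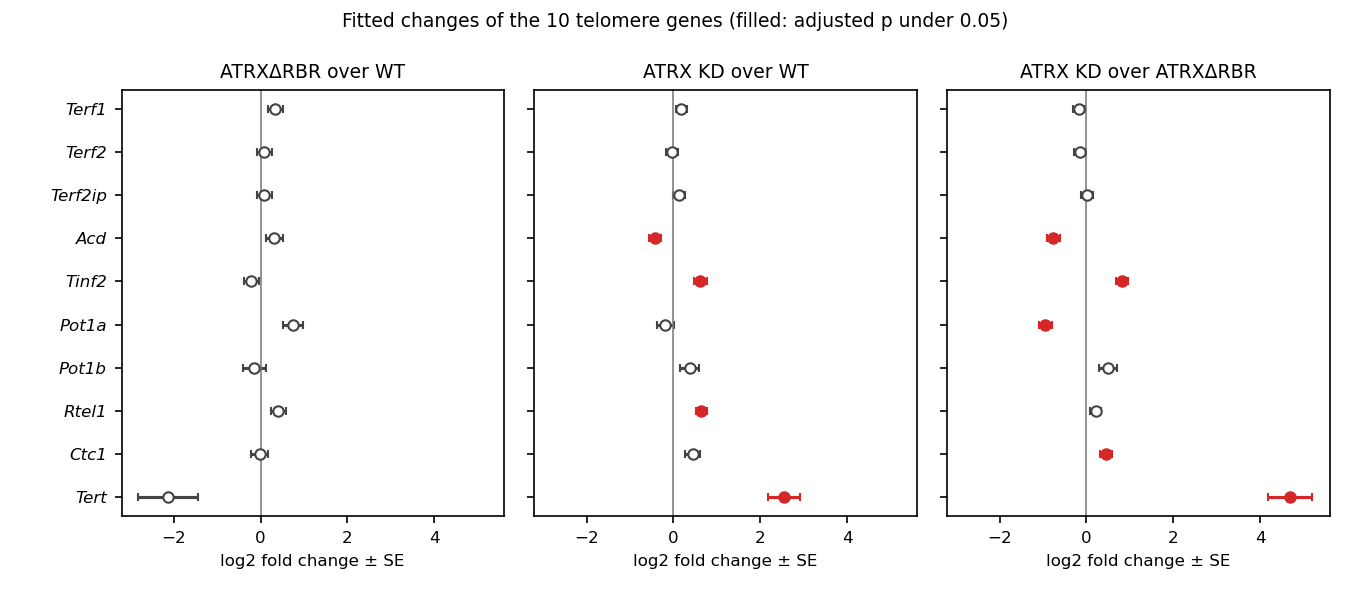
Fitted log2 fold changes (x axis, bars are ± SE of edgeR's fit) of the 10 telomere genes for ATRXΔRBR over WT, ATRX KD over WT and ATRX KD over ATRXΔRBR, with filled points for adjusted p under 0.05. No point is filled in the first panel, 4 in the second and 5 in the third, and Tert spans from -2.14 to 4.68.

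ATRX KD was also set against ATRXΔRBR, which asks whether the perturbations of ATRX differ from each other. The comparison shares its libraries with both of the former, so its values stand beside them and add no independent support. Here 5 of 10 members were called, beside 34.7% of 16520 genes (16.2% higher and 18.5% lower), and the CPM ranges did not overlap for 9 members and for 68.9% of all genes. Tert rose most, with 153 reads in ATRX KD and 4 in ATRXΔRBR, a ratio of 28.9 with an exact counting interval of 11.1 to 108 (fitted log2 fold change 4.68 ± 0.50 SE, adjusted p = 0.000183, edgeR). Tinf2 was 1.75-fold higher (adjusted p = 0.00226, edgeR) and Ctc1 1.36-fold higher (adjusted p = 0.0322, edgeR). The call of Ctc1 was lost in DESeq2 (adjusted p = 0.0651) and without ATRX KD replicate 1 (0.277) or 2 (0.288). Pot1a was lower in ATRX KD by a log2 fold change of -0.95 ± 0.15 (SE, adjusted p = 0.00153, edgeR), with 30.6 and 28.4 CPM beside 60.3 and 51.3. Acd was lower by -0.76 ± 0.15 (SE, adjusted p = 0.00514, edgeR), and without ATRX KD replicate 2 its adjusted p was 0.0575. Pot1a and Acd were thus called between the perturbed groups, with values on either side of WT for Acd.

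Other genes of the pathway were taken from 4 lists with 31 genes, of which 30 could be tested. In ATRXΔRBR against WT 1 of the 30 was called, beside 6.85% of all genes. This was Tep1, a protein of the telomerase and vault particles, with 8.41 and 11.1 CPM in WT and 23.2 and 19.0 CPM in ATRXΔRBR (log2 fold change 1.12 ± 0.23 SE, adjusted p = 0.0274, edgeR). Without WT replicate 1 its adjusted p was 0.0533. In ATRX KD against WT 14 of the 30 were called, 7 higher and 7 lower, beside 33.0% of all genes.

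CTC1 works with STN1 and TEN1 in the CST complex. Stn1 stood at 51.6 and 55.7 CPM for WT, at 72.9 and 77.5 CPM for ATRXΔRBR and at 17.3 and 19.4 CPM for ATRX KD. It fell in ATRX KD by 1.54 on the log2 scale (SE 0.14, adjusted p = 0.000556, edgeR) and was called in each of 11 settings, while in ATRXΔRBR it was not called (log2 0.50 ± 0.17 SE, adjusted p = 0.148, edgeR). Ten1 had 25.6 and 15.2 CPM in WT and 10.6 and 13.6 CPM in ATRX KD, with an adjusted p of 0.0735 (edgeR). It was called lower without a filter on low counts (adjusted p = 0.00147, edgeR) and with the replicate number as a block (adjusted p = 0.0106, edgeR). The log2 value of Ten1 was -0.93 without ATRX KD replicate 2, -1.05 without WT replicate 2 and -0.32 without WT replicate 1.

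The list for the telomerase particle holds its proteins and related factors but not Tert, which rose. Of its 8 tested genes, 5 fell in ATRX KD and none rose, with a median log2 fold change of -0.805. This stands beside 33.0% of all genes called (17.8% lower) and a median of -0.0197. The 5 that fell were Dkc1, Nop10, Nhp2 and Gar1, the core proteins of box H/ACA particles that also serve in ribosomal RNA modification, and Naf1, their assembly factor. Dkc1 (dyskerin) stood at 217 and 170 CPM (WT), 166 and 165 CPM (ATRXΔRBR) and 113 and 113 CPM (ATRX KD) (log2 fold change against WT -0.78 ± 0.15 SE, adjusted p = 0.00735, edgeR). The log2 fold changes of the other four were -0.83 in Gar1, -1.02 in Nop10, -1.02 in Naf1 and -1.17 in Nhp2. Each of the 5 was called in all 11 settings with a test. On mean TPM with a pseudocount of 1, which has no test, the log2 value was -0.20 for Dkc1 and -0.58 for Gar1. Terc, the RNA template of telomerase, gave 0 and 1 reads (WT), 0 and 2 reads (ATRXΔRBR) and 0 and 0 reads (ATRX KD) and was not tested. Mature Terc lacks a long polyA tail, and the libraries were made from polyA RNA.

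Among 16 other telomere-associated genes, 6 rose and 1 fell in ATRX KD against WT, beside 15.2% of all genes called higher and 17.8% lower. By counts Tep1 rose most, to 40.5 and 43.5 CPM (log2 fold change 2.10 ± 0.18 SE, adjusted p = 0.000447, edgeR). On mean TPM with a pseudocount of 1 its log2 value was 0.77. On that scale Rad50 (1.17), Hmbox1 (1.0), Tnks (0.91) and Slx4 (0.87) lay above Tep1, and Nbn (0.69) below. The mean transcript length assigned to Tep1 was 2067 and 2251 bases in WT and 5180 and 6893 bases in ATRX KD. Rad50, a subunit of the MRN break sensor, had 72.2 and 67.9 CPM in WT and 138 and 141 CPM in ATRX KD (log2 0.99 ± 0.12 SE, adjusted p = 0.00137, edgeR). The others that rose, on the log2 scale, were Slx4 (0.81), the nuclease scaffold, and Tnks (0.69), a poly-ADP-ribosyltransferase, with Hmbox1 (0.64), a telomere repeat binder, and Nbn (0.49), another MRN subunit. Leaving out ATRX KD replicate 1 or 2 ended the calls of Nbn (adjusted p = 0.19 and 0.207, edgeR) and Hmbox1 (0.0819 and 0.1), and leaving out replicate 1 that of Tnks (0.0705). With all 6 libraries in 1 fit Hmbox1 had an adjusted p of 0.0574 (edgeR). The flap endonuclease gene Fen1 fell (log2 -0.59 ± 0.18 SE, adjusted p = 0.0404, edgeR), and its adjusted p was 0.118 without ATRX KD replicate 1, 0.148 without replicate 2 and 0.0522 with all 6 libraries in 1 fit. In ATRX KD against ATRXΔRBR, 16 of 30 pathway genes were called, 9 higher and 7 lower, beside 34.7% of all genes, 16.2% higher and 18.5% lower. Of these, 5 were not called in ATRX KD against WT. The log2 fold changes were 0.64 for Shq1, which helps assemble H/ACA particles (adjusted p = 0.0201, edgeR), 0.44 for the MRN nuclease gene Mre11a (0.026), 0.62 and 0.56 for the helicase genes Blm (0.0419) and Pif1 (0.0136) and -0.46 for Tnks2, a paralog of Tnks (0.0245). Each lost its call without ATRX KD replicate 1 and without replicate 2, with adjusted p between 0.0731 (Blm, without replicate 2) and 0.343 (Tnks2, without replicate 2). The histone gene H3f3a, which codes for H3.3, was called higher in ATRX KD against WT (log2 0.61 ± 0.19 SE, adjusted p = 0.0454, edgeR), but had an adjusted p of 0.134 in DESeq2. Its log2 value was 0.72 without ATRX KD replicate 1 and 0.48 without replicate 2. H3f3b, the other H3.3 gene listed, was not called (log2 0.24 ± 0.11 SE, adjusted p = 0.146, edgeR). WT held 456 and 509 CPM of H3f3b beside 8.95 and 8.44 CPM of H3f3a.

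**Figure D3:**
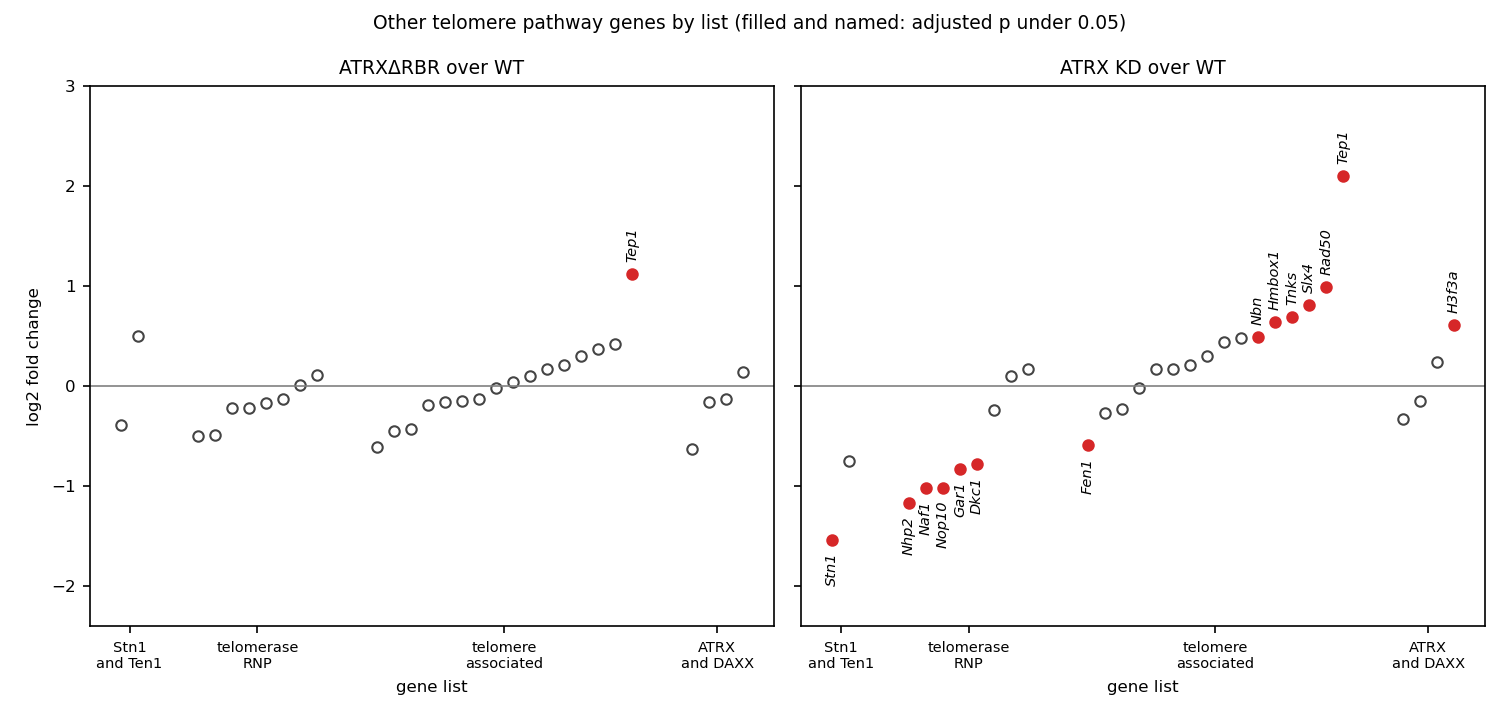
Log2 fold changes (y axis) of the other telomere pathway genes against WT in ATRXΔRBR (left) and ATRX KD (right), ordered within 4 lists (CST partners, telomerase particle, telomere-associated genes, ATRX and DAXX with H3.3 genes); filled, named points had an adjusted p under 0.05. Only Tep1 is filled on the left among the 30 genes, and 14 are filled on the right.

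Peaks were then placed on the members. A gene was counted as having a peak at its transcription start site (TSS) when a called peak lay within 2 kb of the outermost annotated start by at least 1 bp. Peaks were called in each library alone and the lists do not give the read depth of each library, so presence in a list is given beside the share of genes with a peak in the same list. Fold enrichment over local background and −log10 q are properties of a list and were not compared between lists. With 2 lists against 2, the smallest two-sided p of an exact permutation test is 0.333.

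ATRX was called at the TSS of 1 member in WT replicate 1, of 1 in ATRXΔRBR replicate 1 and of 0 in both second replicates. Of protein-coding genes with 10 or more counts in each RNA library, 22.3% and 10.5% had an ATRX peak at the TSS in the WT lists and 25.9% and 9.02% in the ATRXΔRBR lists. Over all annotated genes the shares were 6.75%, 3.38%, 7.29% and 3.05%. The WT peak lay at Pot1a, at chr6:25809248-25809450, from 204 to 2 bases upstream of the TSS, within the promoter window printed above (fold enrichment 4.44, −log10 q 2.75). The ATRXΔRBR peak lay at Terf1, at chr1:15805406-15805977, from 240 bases before to 331 bases after the TSS (fold enrichment 4.77, −log10 q 2.79). Neither peak had a counterpart in the other replicate of its group. A further ATRX peak, in ATRXΔRBR replicate 1, lay past the end of Ctc1, from 20924 to 21748 bases downstream of its TSS.

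EZH2, the methyltransferase that writes H3K27me3, was called at the TSS of more members. In WT the lists held 9 and 7 of the 10 members, beside 83.0% and 77.0% of expressed protein-coding genes and 26.3% and 24.1% of all annotated genes. In ATRXΔRBR they held 7 and 4 members, beside 85.6% and 57.0% of expressed protein-coding genes and 25.5% and 17.8% of all annotated genes. In ATRX KD they held 3 and 5 members, beside 31.1% and 40.7% of the expressed and 9.85% and 12.5% of all annotated genes. The lists counted 22316 and 18351 peaks (WT), 22418 and 11408 (ATRXΔRBR) and 5376 and 7093 (ATRX KD) peaks in all, and the part of list length in the members' counts was not tested.

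Pot1b had an EZH2 peak at its TSS in all 6 lists, and Terf1, Terf2ip and Pot1a in 5 of 6. At Pot1a both ATRX KD lists, both WT lists and ATRXΔRBR replicate 1 had the peak, with a fold enrichment between 4.08 and 5.79. Terf2 had it in both WT and both ATRXΔRBR lists and in neither ATRX KD list. Acd, Tinf2 and Rtel1 had it in 3 lists each, and Ctc1 in WT replicate 1 only. Tinf2 and Rtel1, which rose in ATRX KD, had the EZH2 peak in both WT lists and in neither ATRX KD list. Terf2 had the same pattern in these lists, and its RNA was not called (log2 -0.04 ± 0.14 SE, adjusted p = 0.843, edgeR). Acd, which fell, had the EZH2 peak in WT replicate 1, ATRXΔRBR replicate 1 and ATRX KD replicate 2. A link between these peaks and RNA was not tested. Starts of other genes on the opposite strand lie 46 bases from that of Acd (Pard6a), 75 from Terf2ip (Kars) and 98 from Tinf2 (Gm49067, an antisense gene). Peaks at these starts cannot be assigned to the member alone. Tert had no EZH2 peak at its TSS in any of the 6 lists.

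**Figure D4:**
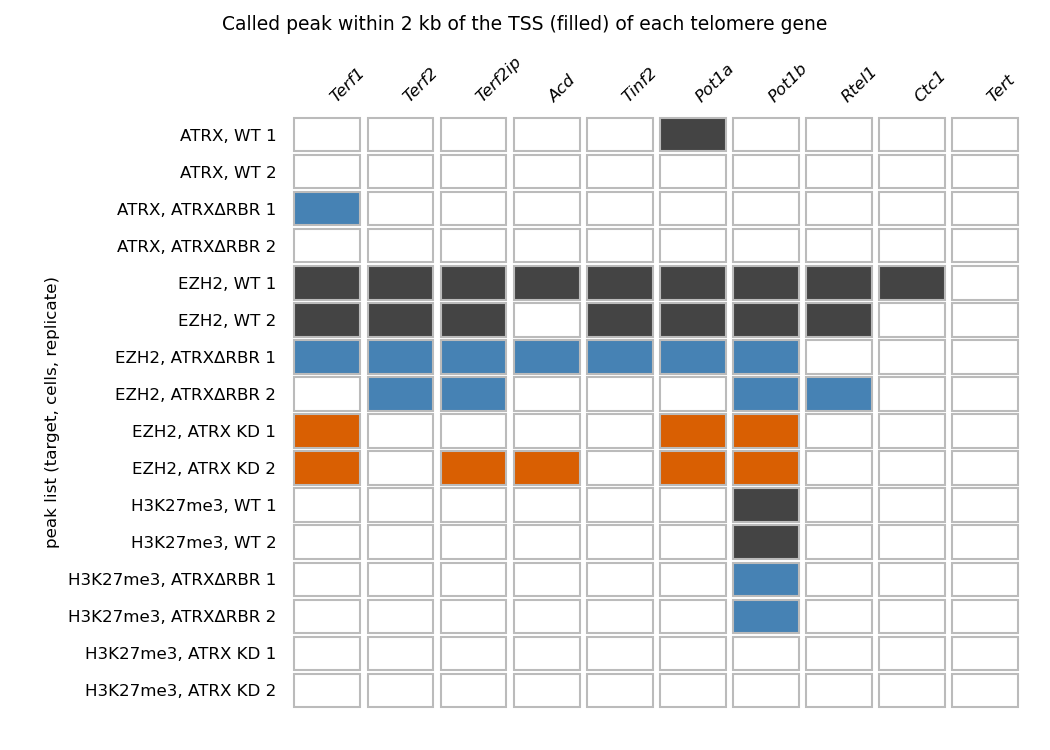
Presence (filled) or absence (open) of a called peak within 2 kb of the TSS for each of the 10 telomere genes (columns) in each of the 16 lists of ATRX, EZH2 and H3K27me3 peaks (rows, with replicate number). The EZH2 rows hold 9 and 7 filled cells for WT, 7 and 4 for ATRXΔRBR and 3 and 5 for ATRX KD, and the H3K27me3 rows hold Pot1b alone.

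H3K27me3 marked the TSS window of 1 member, Pot1b, in both WT and both ATRXΔRBR lists, and of 0 members in both ATRX KD lists. Among expressed protein-coding genes the shares with this mark at the TSS were 3.87% and 4.30% (WT), 6.47% and 5.91% (ATRXΔRBR) and 1.82% and 1.55% (ATRX KD). Over all annotated genes they were 11.8% and 12.7% (WT), 13.5% and 12.0% (ATRXΔRBR) and 3.75% and 3.43% (ATRX KD). Pot1b lies at chr17:55651951-55712628 on the minus strand. The domain stretched upstream of the gene over 17543 and 16568 bases (WT) and 18027 and 17822 bases (ATRXΔRBR). It ended 662 and 677 bases before the TSS in WT and 583 bases before it in ATRXΔRBR replicate 1, and reached 83 bases into the gene in ATRXΔRBR replicate 2. The midpoint of none of these peaks lay within the 2 kb window. Pot1b RNA, at 7.27 and 9.44 CPM in WT, was 11.4 and 10.3 CPM in the ATRX KD libraries without the domain, and did not pass the test (adjusted p = 0.22, edgeR). The ATRX KD lists of H3K27me3 had 7241 and 6336 peaks in all, beside 36011 and 38832 in WT, and the part of list length in the missing domain was not tested.

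**Figure D5:**
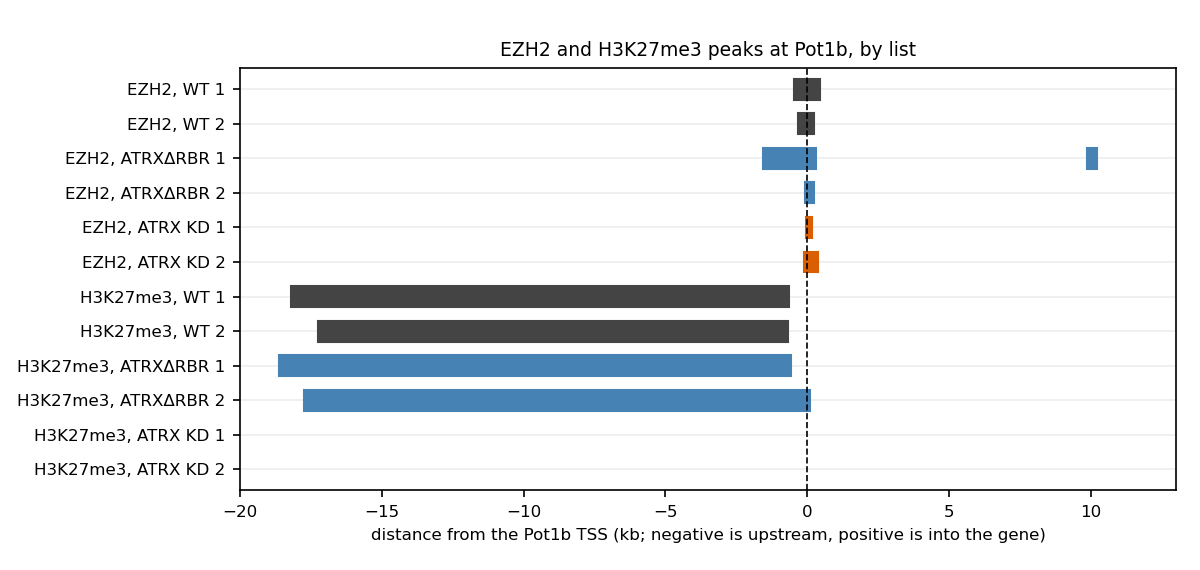
EZH2 and H3K27me3 peaks around Pot1b in each list (rows), by distance from the TSS in kb (x axis, negative is upstream of the gene); bars span the called peaks. All 6 EZH2 lists have a peak on the TSS, the H3K27me3 bars of 16568 to 18027 bases lie upstream of it in WT and ATRXΔRBR, and the ATRX KD rows of H3K27me3 are empty.

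At Tert, H3K27me3 was called near the 3′ end in ATRXΔRBR only among the lists. The peak of replicate 1 began 22212 bases after the TSS and was 1741 bases wide, reaching past the end of the gene (chr13:73626911-73649843). The peak of replicate 2 began 22938 bases after the TSS, beyond the gene end, and was 9200 bases wide. ATRXΔRBR replicate 1 also had an EZH2 peak inside the gene, 19826 bases after the TSS. When any annotated transcript start was used in place of the outermost, both ATRXΔRBR lists of H3K27me3 counted Tert as well.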

How the data were processed

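RNA-Seq and CUT&RUN files of MEFs were analysed. The RNA-Seq files hold estimated counts, TPM and FPKM that the authors obtained from STAR alignments with RSEM, and FPKM was not used. For CUT&RUN, the authors mapped reads to mm10 with Bowtie2 and called broad peaks per library with MACS2. The deposited lists give fold enrichment (a ratio to local background), −log10 p, −log10 q and a score, and the score was not used. The 4 IgG libraries were not analysed here.

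Each comparison kept the genes whose estimates summed to more than 10 over its 4 libraries, and the kept values were rounded to whole numbers. A first fit had filtered on the rounded counts. The filter was moved to the unrounded estimates after those results were seen, and the earlier version is kept as an alternative. Library sizes were scaled with TMM, and groups were compared by edgeR's quasi-likelihood test (edgeR 4.0.16, R 4.3.3) with Benjamini-Hochberg adjustment over all genes, called under 0.05. CPM values use the scaled sizes of all 6 libraries. The fit code was also run on counts simulated independently for each library. These lack the correlations between libraries given below, so that run does not bear on the calls. Peaks were placed with GENCODE M21 in Python 3.11.15 and samtools 1.23.1, sequences come from RefSeq and the GRCm38.p6 genome. DESeq2 1.42.0, other filters and normalizations, a replicate block and leaving out each library were alternatives. Intervals on counts are exact at 95% and cover counting error only.

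The members and lists were chosen with earlier results of these data known. Values are given for all 10 members, for Stn1, Ten1, Terc, Dkc1, Atrx and H3f3b, and for pathway genes called in any comparison. Whether equal replicate numbers mark libraries made together is not given in the sources used here. Deviations of same-numbered libraries from their group means correlated at -0.654 (ATRXΔRBR and WT), -0.116 (ATRX KD and WT) and 0.149 (ATRX KD and ATRXΔRBR).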

Additional observations from a re-analysis of the deposited data

How the results depend on the processing

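Tert in ATRX KD against WT and against ATRXΔRBR, and Tinf2 and Pot1a in ATRX KD against ATRXΔRBR, kept direction and call under every alternative with a test. The number of called members in ATRXΔRBR against WT was 1 in place of 0 without a filter on low counts and with all 6 libraries in 1 fit. All genes called there were 1979 without a filter, 597 with at least 10 counts in every library and 1812 with all 6 libraries in 1 fit, in place of 1119. Leaving out each library gave 0 to 1 called members there, 1 to 6 in ATRX KD against WT and 3 to 7 in ATRX KD against ATRXΔRBR. All genes called then ranged from 1055 to 1520, from 3193 to 8947 and from 3089 to 8736. Filtering on rounded counts called 1120, 5542 and 5734 genes and 0, 4 and 5 members.

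With the replicate number as a block, 0, 3 and 5 members and 1071, 5792 and 6775 genes were called, and Acd lost its call in ATRX KD against WT (adjusted p = 0.0799, edgeR). With crossed numbers as the block, added after seeing the data, 5 members and 5585 genes were called in ATRXΔRBR against WT, and 5 members and 6465 genes in ATRX KD against WT. The numbers are not known to pair the libraries.

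Signs turned for uncalled genes when a library was left out, with log2 values over the 4 omissions as follows. In ATRXΔRBR against WT, Pot1b ranged from -0.33 to 0.06 (0.05 without ATRXΔRBR replicate 2, 0.06 without WT replicate 2), Ctc1 from -0.20 to 0.19 and Ten1 from -0.72 to 0.03, the last 2 positive without WT replicate 1. In ATRX KD against WT, Terf2 ranged from -0.12 to 0.05 (0.04 without ATRX KD replicate 1, 0.05 without WT replicate 1), Pot1a from -0.47 to 0.12 and Atrx from -0.40 to 0.14 (0.04 without ATRX KD replicate 1). In ATRX KD against ATRXΔRBR, Terf2ip ranged from -0.04 to 0.08. Tep1, called higher there, was lower on mean TPM with a pseudocount of 1 (-0.18) or 0.1 (-0.19). The cause was not tested.

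Counting any annotated transcript start gave 2 members with ATRX in ATRXΔRBR replicate 1, 2 with H3K27me3 in each ATRXΔRBR list, and 9 in place of 7 with EZH2 in ATRXΔRBR replicate 1, where Rtel1 and Tert were added. With the peak's midpoint, H3K27me3 counted 0 members in both WT and both ATRXΔRBR lists. With q-values of 0.01 or less, EZH2 held 1 and 3 members in ATRX KD, 5 in WT replicate 2 and 3 in ATRXΔRBR replicate 2. Pot1b then had its EZH2 peak in 4 of 6 lists, since the −log10 q values in ATRX KD were 1.72 and 1.64. Tert and Terc rest on few reads, and depth limits what can be said of them in WT and ATRXΔRBR.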
